A study of Homo sapiens with 4 samples.

Results

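The lung line A549 and the kidney line 293T were compared for how their transcripts changed after 2 h in a magnetic field. The quantity measured was the difference in response, the log2 fold change of exposed against control cells in A549 minus the same log2 fold change in 293T. Values were deposited as FPKM, fragments scaled by gene length and by the library's total, and were used as log2(FPKM + 1), a scale that understates the changes of low genes. Of 26348 genes listed, 13811 had at least 0.5 FPKM in at least 3 of the 12 libraries and were tested. The difference in response passed limma's test with Benjamini-Hochberg adjustment at 0.05 for 1732 genes, 12.5% of those tested. These genes, above all the 153 that moved in opposite directions and the 1352 that passed in 1 line only, are described here.

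The 4 groups were exposed and control A549 and exposed and control 293T, with 3 libraries in each. A549 is an established line that arose from non-small cell lung cancer, and 293T is an established line of kidney epithelial origin that expresses the large T antigen of a polyomavirus. Both lines received the same label of a 2 h exposure, and the control groups are labelled as having had no field. For the field no strength or frequency is stated in the labels, and for the cultures no temperature or passage. No label says whether the libraries of a group are separate cultures. Their spread may therefore be technical, and it is the only spread behind the p-values.

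A window of 2 h is one in which early transcriptional programmes of a stressed or stimulated cell are read out. Heat shock factor drives chaperone genes when proteins misfold, the immediate early genes follow growth factor and stress kinases without new protein synthesis, and ATF4 drives amino acid transport and synthesis genes when translation initiation is restrained. YAP with TEAD factors drives matricellular genes such as CCN1 and CCN2 in spread, dividing epithelial cells, and SMAD factors drive ID1 and PMEPA1 downstream of BMP and TGF-beta receptors. 293T cells carry large T, which binds p53 and RB proteins, whereas A549 cells keep functional p53 and carry a defect in KEAP1 that leaves NRF2 active.

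Recovered fragment counts lay between 37171616 and 38883963 per library, a ratio of 1.046. Mitochondrially encoded transcripts made up 7.69% to 7.96% of counts in exposed and 8.35% to 9.28% in control A549, and 4.37% to 4.45% in exposed and 4.85% to 5.21% in control 293T. On the first principal component within each line, exposed replicate 3 lay nearest to the controls (at 9.91 against 15.7 and 18.2 in A549, and 6.51 against 16.1 and 14.7 in 293T). All 17 markers of A549 were higher in control A549 than in control 293T, with summed levels of 10560 to 10690 against 184 to 189 FPKM. Of 16 listed markers of 293T, 11 were higher in control 293T and 3 in control A549. Of 14 markers of blood, endothelial and stromal cells, 4 reached 1 FPKM in any library group, their sum stayed between 4.65 and 6.57 FPKM, and none was at 0 in every library. In bulk RNA, fewer cells of a kind and less RNA per cell cannot be told apart.

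The responses of the lines were related but far from equal. Across the 13811 genes the log2 fold changes had a Pearson r of 0.6 and a Spearman rho of 0.56, as a description over genes of 12 libraries in which the lines share no control. In A549 5548 genes passed the test, of which 1837 rose (13.3% of genes tested) and 3711 fell (26.9%). In 293T 5243 passed, of which 1897 rose (13.7%) and 3346 fell (24.2%). Both lines called 2986 genes, 2833 of them in the same direction and 153 in opposite directions. Most genes called in 1 line and not in the other had no called difference in response, which does not show that the lines responded alike. Of 2562 genes called in A549 and not in 293T, 827 had a called difference in response, and of 2257 called in 293T and not in A549, 525 had one.

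**Figure D1:**
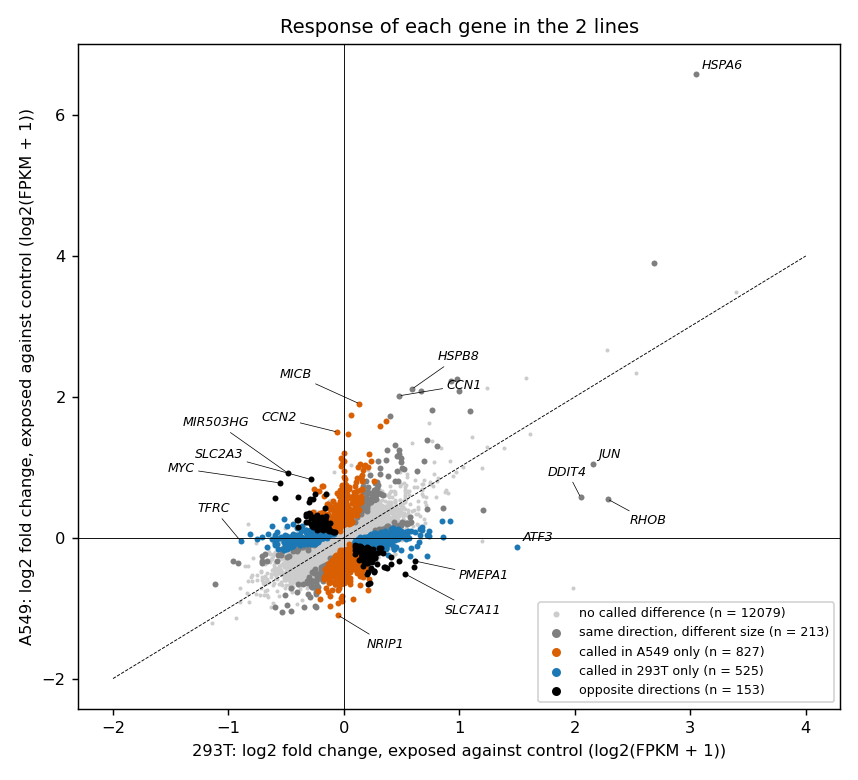
Log2 fold change of exposed against control on the log2(FPKM + 1) scale in 293T (horizontal) and A549 (vertical), 1 point for each gene tested, with coloured points for classes of genes whose difference in response passed the test and a dashed line of equal response. The 14 genes with a called difference and no call in either line are not drawn. HSPA6 lies farthest from the origin, and MYC (0.78 in A549 and -0.56 in 293T) lies in the quadrant of opposite directions.

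The response was higher in A549, meaning more of a rise or less of a fall, for 761 genes (5.51% of those tested), and lower for 971 (7.03%). Centring each library on its median turned this balance to 967 higher and 765 lower, so the count on each side depends on the scaling. Leaving out control 293T replicate 2 left 637 lower, and limma-voom on recovered counts called 663 higher and 580 lower. Few differences were large, since 33 called genes differed by at least 1 on the log2 scale, 26 with the higher response in A549 and 7 with the lower. At the threshold, POLR1B, a subunit of RNA polymerase I, was just inside with a difference of 0.20, and ZFYVE21, at -0.28, was just outside.

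By class, 65 genes rose in A549 and fell in 293T, and 88 fell in A549 and rose in 293T, together 1.11% of genes tested. Genes called in 1 line only with a tested difference made up 9.79%. In A549 306 rose and 521 fell, and in 293T 253 rose and 272 fell. Among genes called in both lines in the same direction, 80 rose more in A549, 33 rose more in 293T, 69 fell more in A549 and 31 fell more in 293T. Another 14 had a called difference but no call in either line. Without the third exposed library of both lines the opposite classes held 82 and 112 genes, and the 1-line classes 325, 531, 289 and 346 in the order given above.

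**Figure D2:**
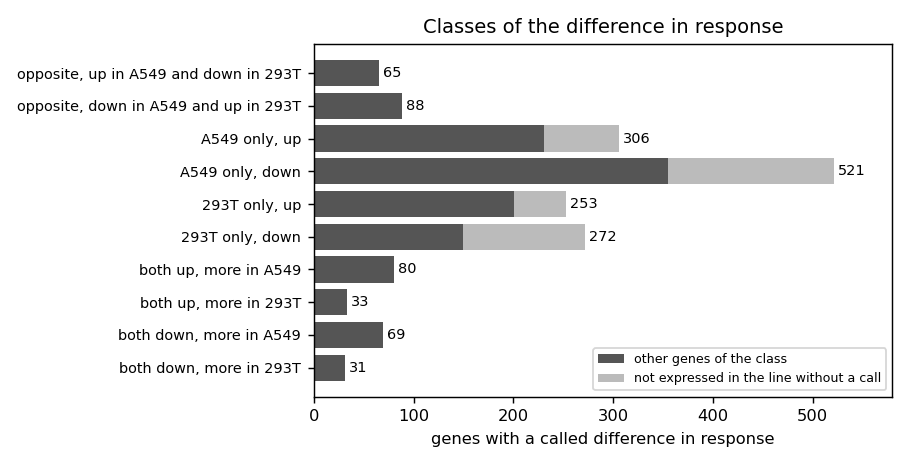
Number of genes with a called difference in response (horizontal) in each class by direction and line (vertical), with the genes not expressed in the line without a call in light grey. The class of 521 genes that fell in A549 only is the longest bar, and the opposite classes hold 65 and 88 genes.

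Promoters of 4 genes from 4 classes are shown as examples of the sequence before the start of genes that responded differently. These 4 were picked without a ranking rule, each holds a motif match, and they do not stand for their classes. The promoters of MICB, ATF3, JUN, RHOB, DDIT4 and HSPB8, among other named genes, held no match. Each is the 250 bases before the RefSeq start in GRCh38.p14, read 5′ to 3′ on the strand of the gene, with motif matches in capitals. EPHA2, an ephrin receptor kinase, rose in A549 and fell in 293T, and its promoter holds 1 cyclic AMP response element, TGACGTCA, and 1 MCAT element, CATTCC, the core bound by TEAD factors (chr1:16156070-16156319, minus strand).
EPHA2: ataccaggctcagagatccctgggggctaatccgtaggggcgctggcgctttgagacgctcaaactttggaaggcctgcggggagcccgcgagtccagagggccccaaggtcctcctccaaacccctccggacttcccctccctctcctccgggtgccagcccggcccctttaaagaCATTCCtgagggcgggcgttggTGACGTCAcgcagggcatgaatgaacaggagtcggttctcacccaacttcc
CCN2, a matricellular growth factor gene, rose in A549 only, and its promoter holds 3 MCAT elements, printed as their reverse complement GGAATG (chr6:131951373-131951622, minus strand).
CCN2: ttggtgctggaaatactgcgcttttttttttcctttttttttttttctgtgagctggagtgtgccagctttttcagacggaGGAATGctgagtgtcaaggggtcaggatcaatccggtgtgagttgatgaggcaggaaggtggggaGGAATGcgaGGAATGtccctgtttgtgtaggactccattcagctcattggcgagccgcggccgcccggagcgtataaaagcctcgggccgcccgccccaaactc
JUND, a subunit of the AP-1 transcription factor, rose in 293T only, and its promoter holds 1 cyclic AMP response element (chr19:18281623-18281872, minus strand).
JUND: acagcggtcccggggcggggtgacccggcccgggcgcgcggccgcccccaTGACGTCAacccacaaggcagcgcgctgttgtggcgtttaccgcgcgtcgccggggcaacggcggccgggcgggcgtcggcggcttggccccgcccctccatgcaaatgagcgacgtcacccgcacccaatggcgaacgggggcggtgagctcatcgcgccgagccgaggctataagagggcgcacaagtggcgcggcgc
HSPA6, an inducible HSP70, rose in both lines and more in A549, and its promoter holds 1 heat shock element, here on the reverse strand, and 2 AP-1 sites as TGAGTCA, the reverse complement of TGACTCA (chr1:161524290-161524539, plus strand).
HSPA6: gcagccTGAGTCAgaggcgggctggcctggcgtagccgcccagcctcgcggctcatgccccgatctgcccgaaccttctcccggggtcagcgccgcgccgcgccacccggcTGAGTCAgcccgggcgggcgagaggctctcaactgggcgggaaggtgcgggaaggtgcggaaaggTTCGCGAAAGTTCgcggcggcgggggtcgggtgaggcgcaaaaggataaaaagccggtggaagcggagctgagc

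The heat shock element was searched as the alternating units GAA, TTC and GAA with 2 bases of any kind between neighbours. These 4 motifs were counted on both strands of the promoters of the 11182 tested genes that had one in the table, and matches of different motifs may share bases. The heat shock element stood in 4 of 69 promoters (5.8%) of genes that rose more in A549, those of HSPA6 and of the co-chaperones CHORDC1 and DNAJB6 and the collagen chaperone SERPINH1, named after their values were seen, against 0.295% of all tested genes. It stood in 4 of 254 promoters (1.57%) of genes that rose in A549 only. Falling genes held it too, in 2 of 390 promoters (0.513%) of those that fell in A549 only. Of genes that fell in both lines and more in A549, 1 of 56 (1.79%) held it. The cyclic AMP response element stood in 11 of 201 promoters (5.47%) of genes that rose in 293T only and in 5 of 68 (7.35%) of those that fell in A549 and rose in 293T, against 2.96% of all tested genes. It was also in 3 of 52 (5.77%) of the genes that rose in A549 and fell in 293T. AP-1 sites stood in 14 of 254 promoters (5.51%) of genes that rose in A549 only, against 2.53% of all. The MCAT element stood in 25 of those 254 (9.84%) and in 9.29% of all. A match describes letters and is no site of binding, and these shares were not tested.

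Genes that rose in A549 and fell in 293T included regulators of growth and of epithelial state. MYC, the growth-promoting transcription factor, spans 127735434 to 127742951 of chromosome 8 (GRCh38.p14). It was at 25.96, 26.7 and 26.1 FPKM in the control A549 libraries and at 47.7, 43.0 and 46.8 FPKM in the exposed ones. In 293T it went from 24.8, 23.0 and 23.1 FPKM in controls to 15.3, 15.7 and 16.2 FPKM after exposure. Control levels were alike in the lines, the exposed libraries moved apart, and exposed and control libraries overlapped in neither line. The log2 fold changes were 0.78 and -0.56, a difference of 1.34 (SE 0.06, limma adjusted p = 5.73e-07).

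SLC2A3, which encodes the glucose transporter GLUT3, lay at 15.6, 15.4 and 14.8 FPKM in control and 28.6, 28.2 and 26.9 FPKM in exposed A549. In 293T, where it was low, controls held 2.04, 2.04 and 2.17 FPKM and exposed libraries 1.44, 1.42 and 1.72 FPKM. Each exposed library was above every control in A549 and below every control in 293T. The difference in response was 1.12 (SE 0.07, adjusted p = 7.06e-06), from log2 fold changes of 0.83 in A549 and -0.29 in 293T.

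MIR503HG, the host transcript of the growth-restraining microRNAs miR-503 and miR-424, had the largest difference among the 20 opposite genes picked by rank. Its level rose from 2.29, 2.10 and 3.08 FPKM to 5.58, 6.10 and 5.04 FPKM in A549 and fell from 8.02, 9.21 and 10.1 FPKM to 6.16, 6.01 and 6.36 FPKM in 293T. The controls of the lines differed, and after exposure the lines lay close together. The difference was 1.41 (SE 0.14, adjusted p = 0.000179), and reads of the overlapping microRNA genes cannot be told apart from it.

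Further regulators had this pattern at unequal baselines. EPHA2, whose promoter is printed above, went from 49.4, 48.5 and 49.8 to 74.5, 71.8 and 65.4 FPKM in A549 and from 3.13, 2.85 and 3.06 to 2.36, 2.24 and 2.17 FPKM in 293T (difference 0.81, SE 0.07, adjusted p = 6.79e-05). SNAI2, the repressor Slug of epithelial to mesenchymal transition, had the opposite order of baselines. Its values were 1.26, 1.396 and 1.44 against 2.17, 3.00 and 2.29 FPKM in A549 and 20.1, 20.5 and 21.8 against 16.3, 16.6 and 18.7 FPKM in 293T, in each case controls first (difference 0.82, SE 0.11, adjusted p = 0.00107). TFAP2C, the AP-2 gamma factor of epithelial and trophoblast cells, rose by 0.57 in A549 with exposed values from 9.65 to 13.9 FPKM and had a log2 fold change of -0.39 in 293T. The groups overlapped for none of these genes in either line.

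The other genes of this class picked by rank changed less. FGF2, a secreted fibroblast growth factor, had log2 fold changes of 0.28 in A549 and -0.28 in 293T, and the ubiquitin ligase gene RNF182 of 0.35 and -0.30. PRKD2, a kinase of the protein kinase D family, had 0.34 and -0.29, and TSPYL4, a member of the nucleosome assembly family, 0.55 and -0.30. EPHA2, RNF182, PRKD2 and FGF2 each overlap another annotated gene (FGF2 overlaps NUDT6), and since no source states whether reads were counted by strand, their values may include reads of the neighbour. The median difference over the 65 genes was 0.44, with medians of 0.22 in A549 and -0.20 in 293T.

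Genes that fell in A549 and rose in 293T included amino acid transporters and targets of TGF-beta and BMP. SLC7A11, the cystine and glutamate antiporter that feeds glutathione synthesis, stood at 60.02, 40.7 and 44.9 FPKM in control and 31.6, 31.8 and 36.5 FPKM in exposed A549. In 293T it stood at 2.90, 2.67 and 3.15 FPKM in control and 5.80, 5.30 and 3.17 FPKM in exposed libraries. Exposed 293T replicate 3 was barely above the highest control, and the other two exposed libraries were well above it. The difference was -1.04 (SE 0.24, adjusted p = 0.0142). SLC6A9, the glycine transporter GlyT1, showed the same order with 5.03, 5.16 and 4.90 against 3.63, 3.55 and 3.44 FPKM in A549 and 2.29, 2.27 and 2.05 against 4.87, 4.50 and 2.59 FPKM in 293T. Again replicate 3 of exposed 293T rose least (difference -1.02, SE 0.19, adjusted p = 0.00571). SLC7A11 overlaps an antisense gene and SLC6A9 overlaps CCDC24.

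PMEPA1, an inhibitor of SMAD signalling that TGF-beta itself induces, lay at 154, 155 and 153 FPKM in control and 127, 114 and 125 FPKM in exposed A549. Its 293T levels were 2.48, 2.05 and 2.35 FPKM in controls and 4.28, 4.24 and 3.63 FPKM after exposure. The A549 level remained far above that of 293T in both conditions, while the directions were opposite and without overlap (difference -0.95, SE 0.09, adjusted p = 0.000111). PMEPA1 overlaps the non-coding gene NKILA. ID1, an inhibitor of DNA binding that BMP signals induce, had 174, 174 and 171 against 140.1, 139.6 and 135 FPKM in A549 and 19.4, 19.1 and 21.5 against 27.1, 23.8 and 34.5 FPKM in 293T. All exposed libraries of A549 were below the controls and all of 293T above (difference -0.80, SE 0.14, adjusted p = 0.00317).

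The other genes picked by rank had varied roles. TOB1, an adaptor of mRNA deadenylation that restrains proliferation, had log2 fold changes of -0.37 in A549 and 0.41 in 293T, and CPEB2, which binds the cytoplasmic polyadenylation element, of -0.43 and 0.37. FZD7, a Wnt receptor, had -0.42 and 0.34, and HOXA13, a homeobox gene of distal limb and urogenital tract, -0.27 and 0.41. FBXO5, the inhibitor EMI1 of the anaphase-promoting complex, had -0.38 and 0.28, and SERTAD3 had -0.42 and 0.35. Over the 88 genes the median difference was -0.45, with medians of -0.24 in A549 and 0.20 in 293T.

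Exposed and control libraries of A549 did not overlap for 63 of the 65 and 87 of the 88 genes, against 49.7% of all genes tested, and those of 293T for 63 and 87 as well, against 50%. For 147 of the 153 there was no overlap in both lines, against 30.4% of all, but a call in both lines makes such separation likely, and nothing is read from it. A control level of at least 1 FPKM in both lines was found for 134 of them. The difference in response kept its sign for all 153 in every alternative that tested them, although a mean FPKM of at least 1 left 147 to test. How many counted as opposite depended on single libraries. The 65 genes became 41 without exposed 293T replicate 2 or without control 293T replicate 1, and the 88 became 58 without exposed 293T replicate 1 and 56 without control 293T replicate 2. With no filter on low values 55 of the second kind were called. For each of the 20 genes named, the difference passed the test under all alternatives run for it.

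**Figure D3:**
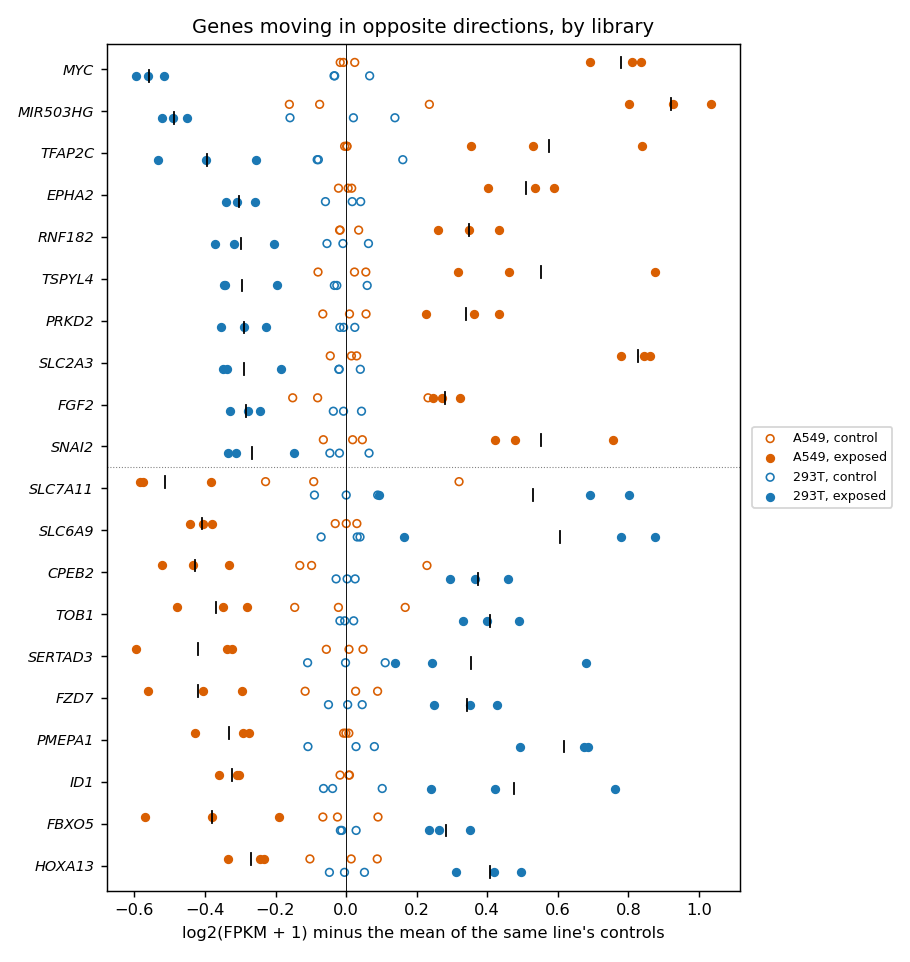
Log2(FPKM + 1) of each library minus the mean of the controls of its line (horizontal) for the 20 genes of the opposite classes picked by rank (vertical), with open circles for control and filled circles for exposed libraries, orange for A549, blue for 293T, and a bar at the mean of the exposed libraries. The upper 10 genes rose in A549 and fell in 293T, as MYC with means of 0.78 and -0.56, and the lower 10 did the reverse.

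Among genes that rose in A549 only, MICB had the largest difference. It encodes a surface ligand of the NKG2D receptor of natural killer cells, induced in stressed cells, and lies on chromosome 6 from 31494918 to 31511124. Its levels were 6.57, 6.21 and 6.70 FPKM in control and 27.9, 32.9 and 21.5 FPKM in exposed A549, a 4.22-fold rise. In 293T it was at 4.37, 4.55 and 3.95 FPKM in controls and 5.09, 4.80 and 4.51 FPKM after exposure. The lines started near each other, A549 rose far beyond its spread, and the log2 fold change of 0.13 in 293T did not pass the test. The difference was 1.77 (SE 0.16, adjusted p = 0.000105).

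CCN2, with its 3 MCAT elements, was at 7.01, 6.74 and 5.76 FPKM in control and 18.6, 25.4 and 17.4 FPKM in exposed A549, against 1.83, 1.67 and 2.06 and 1.90, 1.34 and 2.02 FPKM in 293T. The A549 groups were apart and the 293T groups overlapped (difference 1.56, SE 0.18, adjusted p = 0.00051). It overlaps the antisense gene CCN2-AS1. PGF, the placental growth factor of the VEGF family, was the reverse in baseline. In A549 it rose from 0.471, 0.364 and 0.418 FPKM, below the level called expressed, to 2.84, 5.33 and 2.16 FPKM, while 293T held 6.90, 6.85 and 6.55 FPKM in controls and 9.90, 8.11 and 7.96 FPKM after exposure (difference 1.28, SE 0.26, adjusted p = 0.00861). GPRC5A, an orphan receptor of lung epithelium induced by retinoic acid, rose 2.33-fold in A549 to between 86.9 and 119.8 FPKM and had a log2 fold change of 0.21 in 293T. ACTRT3, an actin-related protein gene, had log2 fold changes of 1.66 and 0.36, with a difference not called by limma-voom (adjusted p = 0.0562) or with no filter (0.0617), and FAM43A had 1.09 and 0.00 with exposed A549 values of 2.40, 5.03 and 2.59 FPKM. Exposed A549 replicate 2 was the highest of the A549 libraries for CCN2, ACTRT3, PGF, FAM43A and GPRC5A. In 293T too, all exposed libraries of ACTRT3, PGF and GPRC5A were above the controls. Their limma adjusted p in 293T were 0.224, 0.211 and 0.0977, so whether they rose there is not settled by this test. Over the 306 genes that rose in A549 only, 79 had no overlap in 293T, against 50% of all genes tested.

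Genes that fell in A549 only included transcriptional regulators. NRIP1, a corepressor of nuclear receptors, went from 27.3, 24.4 and 25.5 FPKM to 10.8, 10.6 and 13.1 FPKM in A549, a 2.24-fold fall. Its 293T libraries held 4.08, 4.26 and 4.39 FPKM in controls and 3.92, 4.10 and 4.18 FPKM after exposure. The 293T values were lower throughout and differed by little (difference -1.05, SE 0.10, adjusted p = 0.000111). GATA2, a zinc finger factor of blood, urogenital and neural cells that was on the list of 293T markers, fell in A549 from 6.08, 6.29 and 6.32 to 2.49, 2.93 and 3.29 FPKM. In 293T, where it was higher, it was at 17.1, 15.6 and 15.2 FPKM in controls and 15.2, 13.7 and 18.7 FPKM after exposure, with overlap (difference -0.88, SE 0.14, adjusted p = 0.00196). GATA2 overlaps an antisense gene.

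BTG2, an antiproliferative gene that p53 induces, had log2 fold changes of -0.74 in A549 and 0.21 in 293T, and E2F2, a transcription factor of S phase genes, of -0.67 and 0.14. All exposed 293T libraries of BTG2 were above the controls. Its limma adjusted p in 293T was 0.156, so whether it rose there is not settled by this test. ARRDC3, an alpha-arrestin, had log2 fold changes of -0.87 in A549 and 0.08 in 293T. SNHG12, a host of small nucleolar RNAs, had -0.86 and -0.02, but its difference of -0.84 (adjusted p = 0.0307) was lost on leaving out exposed 293T replicate 2, any control 293T library, or control A549 replicate 2 or 3 (adjusted p from 0.0163 to 0.0745 over the 12 fits that left out 1 library).

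Genes that rose in 293T only were led by stress-induced transcription factors. ATF3, a factor of the ATF and CREB family that many stresses induce, lies on chromosome 1 from 212565407 to 212620777. In 293T it went from 12.6, 14.1 and 12.3 FPKM in controls to 47.0, 41.9 and 29.0 FPKM after exposure, a 3.02-fold rise. In A549 controls were at 16.04, 18.4 and 17.0 FPKM and exposed libraries at 13.8, 19.2 and 14.4 FPKM. Baselines were similar, all exposed 293T libraries stood above every other library, and the A549 groups overlapped. The difference was -1.63 (SE 0.22, adjusted p = 0.000894), one of 7 called differences of at least 1 with the lower response in A549.

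JUND, whose promoter is printed above, rose in 293T from 11.9, 12.9 and 12.5 to 22.5, 23.2 and 17.8 FPKM, while A549 held 30.2, 27.8 and 28.0 FPKM in controls and 20.6, 27.7 and 23.4 FPKM after exposure. Its log2 fold change of -0.26 in A549 missed the threshold (adjusted p = 0.0584), so whether it fell there is not settled by this test. The difference of -0.98 passed (SE 0.14, adjusted p = 0.0015). KLF2, a Krueppel-like factor of endothelial quiescence, rose in 293T from 0.501, 0.293 and 0.362 to 2.01, 1.83 and 0.850 FPKM, with exposed replicate 3 least, and was between 2.14 and 2.53 FPKM in all 6 A549 libraries, a difference not called with no filter (adjusted p = 0.0555). IRF9, the DNA-binding part of the interferon-activated complex ISGF3, had log2 fold changes of 0.58 in 293T and -0.15 in A549. Its exposed A549 libraries were all below the controls (limma adjusted p = 0.27), so whether it fell there is not settled by this test. MEX3B, an RNA-binding protein gene, had log2 fold changes of 0.65 in 293T and -0.06 in A549. HOXB4, a homeobox gene, had 0.92 and 0.23, and the call for its difference did not hold with a pseudocount of 0.1 (adjusted p = 0.263), with limma-voom (0.589) and after rescaling to TPM (0.0529), in a range from 0.0023 to 0.589 over all alternatives.

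Named genes that fell in 293T only were led by TFRC, the transferrin receptor through which cells take up iron, on chromosome 3 from 196049284 to 196082090. Control 293T libraries held 77.7, 81.1 and 80.2 FPKM and exposed ones 39.9, 44.2 and 43.1 FPKM, a 1.88-fold fall. A549 held 84.0, 83.2 and 83.5 FPKM in controls and 80.2, 79.9 and 82.7 FPKM after exposure. Baselines were nearly equal and only 293T changed by the test, with a log2 fold change of -0.05 in A549. The difference was 0.85 (SE 0.05, adjusted p = 6.35e-06). ERFE, the hormone erythroferrone that lowers hepcidin, had log2 fold changes of -0.40 in 293T and 0.14 in A549 (difference 0.54, SE 0.09, adjusted p = 0.00301). LRATD2, on chromosome 8, had -0.62 and 0.17, and DOK3, an adaptor protein of immune signalling, -0.49 and 0.16. The antisense gene ZSWIM8-AS1, which overlaps ZSWIM8, had -0.60 and 0.03, and the divergent transcript MOCS2-DT -0.51 and 0.04. In A549 all exposed libraries of LRATD2 and DOK3 were above the controls. Their limma adjusted p there were 0.0682 and 0.0719, so whether they rose is not settled by this test.

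**Figure D4:**
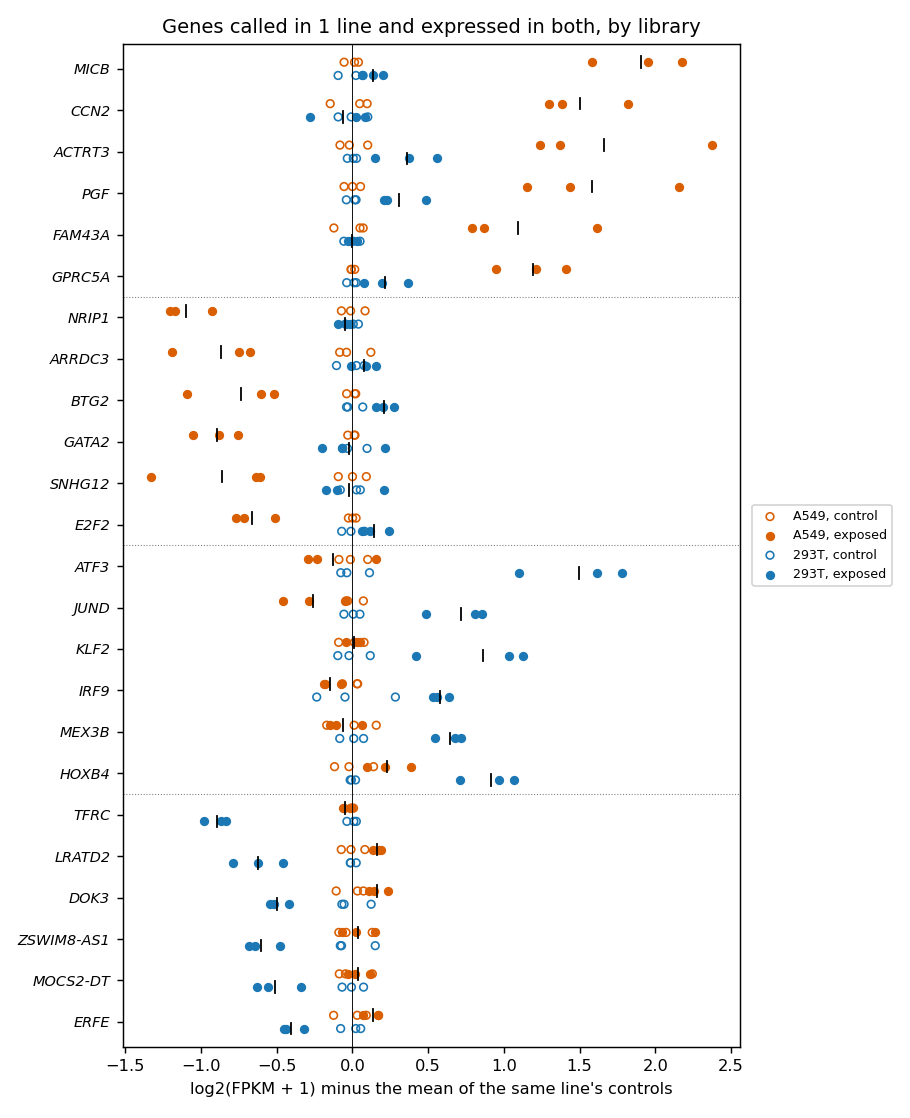
Log2(FPKM + 1) of each library minus the mean of the controls of its line (horizontal) for 24 genes called in 1 line only and expressed in both (vertical), drawn as in the plot of opposite genes, in the order A549 rise, A549 fall, 293T rise and 293T fall. For TFRC the mean of the exposed libraries lies at -0.89 in 293T and -0.05 in A549.

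Of the 1352 genes of these classes, 936 were expressed in the line without a call, with at least 0.5 FPKM in at least 3 of its 6 libraries, and 416 were not. Among the latter were HSPA1L, an HSP70 of testis (0.736, 0.756 and 0.821 to 4.72, 6.88 and 3.603 FPKM in A549 and 0.159 to 0.302 FPKM over the 293T libraries), CGAS, the sensor of cytosolic DNA (6.16, 5.99 and 5.57 to 15.1, 24.2 and 16.3 FPKM in A549 and under 0.1 FPKM in 293T), and the chemokine gene CCL26. Falls in A549 of this kind were those of the adaptor GRB7 (2.59-fold), the interferon-induced SLFN5 (2.27-fold) and the epithelial ETS factor ELF3 (1.60-fold). In 293T the rises were those of the histone gene H2BU1, ATE1-AS1 and the creatine kinase gene CKMT1B, which has a near-identical copy, and the falls those of SMIM10L2B (2.32-fold), LINC00958 (2.50-fold) and ESPNL (2.37-fold). Limma-voom no longer called the difference for CGAS, CCL26, GRB7, SLFN5, ELF3, H2BU1, ATE1-AS1, CKMT1B, SMIM10L2B and LINC00958, with adjusted p from 0.0632 for SLFN5 to 0.873 for CKMT1B, and it called that for HSPA1L and ESPNL. The call for CKMT1B was lost on leaving out any 1 library except exposed or control 293T replicate 3 and control A549 replicate 2. That for ATE1-AS1 was lost without exposed A549 replicate 1 or 2, control 293T replicate 3 or control A549 replicate 1 or 3 (adjusted p up to 0.0925 and 0.0692).

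The log2(FPKM + 1) scale compresses changes near 0, and for these 416 genes a response of the other line could not be measured well. With limma-voom, which compares relative change, 5 of 241 such genes remained called in A549 only and 5 of 175 in 293T only. Of the genes expressed in both lines, 373 of 586 and 197 of 350 remained so. In all, limma-voom called 211 falls in A549 only and 127 falls in 293T only, against 521 and 272, and a pseudocount of 0.1 called 164 falls in 293T only. The 253 rises in 293T only became 156 without exposed 293T replicate 2, 163 without control replicate 1 and 159 without control replicate 2. The 272 falls became 180, 167 and 193 in the same 3 fits and 426 without exposed 293T replicate 3.

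Among genes expressed in both lines, 36.5% of all tested were higher in control A549 than in control 293T. The share was 32.2% for genes that rose in A549 only and 51.3% for those that fell there only. It was 45.3% for genes that rose in 293T only and 35.4% for those that fell there only. Control libraries enter both the level and the fold change, so these shares are descriptions. The shares of long non-coding RNA genes were taken over whole sets, including genes not expressed in both lines. They were 8.6% of genes tested, 16.5% of those that fell in 293T only and 2.8% of those that rose there only. The falls included more genes not expressed in A549 than the rises did. Whether the shares also differ among genes expressed in both lines was not tested.

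Genes that rose in both lines and further in A549 included HSPA6, CCN1 and HSPB8. HSPA6, an inducible HSP70 chaperone, was at 0.601, 0.602 and 0.875 FPKM in control and 99.97, 431 and 95.9 FPKM in exposed A549, and at 0.822, 0.747 and 0.955 and 26.03, 27.5 and 3.58 FPKM in 293T. Exposed A549 replicate 2 was far above the other libraries, and exposed 293T replicate 3 was the lowest exposed one. The difference of 3.53 had a wide error (SE 0.91, adjusted p = 0.0259) and was lost without any 1 of the 3 control 293T libraries (adjusted p 0.0522 to 0.0552), with no filter (0.0811) and with limma-voom (0.524). CCN1, a matricellular partner of CCN2, rose 4.34-fold in A549 and 1.49-fold in 293T (difference 1.54, SE 0.24, adjusted p = 0.00197). HSPB8, a small heat shock protein that acts with BAG3, rose 4.90-fold and 1.71-fold (difference 1.52, SE 0.27, adjusted p = 0.00411).

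RHOB, DDIT4 and JUN rose more in 293T. RHOB, a stress-induced small GTPase, was at 30.9, 30.2 and 30.2 FPKM in control and 181, 187 and 104 FPKM in exposed 293T, and at 32.2, 33.2 and 33.3 and 42.8, 63.3 and 42.3 FPKM in A549. The controls of both lines were alike and the exposed libraries of 293T were all above those of A549 (difference -1.74, SE 0.27, adjusted p = 0.00202). DDIT4, the inhibitor of mTORC1 also called REDD1, rose 4.40-fold in 293T and 1.52-fold in A549 (difference -1.47, SE 0.20, adjusted p = 0.00105). JUN, the AP-1 subunit, rose 4.58-fold and 2.19-fold (difference -1.10, SE 0.26, adjusted p = 0.0173, and 0.0576 with no filter).

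Falls shared by the lines differed less. CAMKK1, a kinase that activates calmodulin-dependent kinases, fell by 1.05 on the log2 scale in A549 and by 0.46 in 293T. RAI1, a chromatin gene of Smith-Magenis syndrome that overlaps SREBF1, had -0.97 and -0.25. PRR22, the antisense gene CCDC18-AS1 and SLC25A32, a mitochondrial folate carrier, fell more in 293T on the log2(FPKM + 1) scale, with differences of 0.46, 0.45 and 0.38. In mean FPKM the falls of PRR22 were close, 2.57-fold in A549, where it was lower, and 2.72-fold in 293T. The call for PRR22 was lost without exposed A549 replicate 1 or control 293T replicate 1 or 3 (adjusted p up to 0.0554). That for SLC25A32 was lost on leaving out any 1 library except exposed 293T replicate 3, exposed A549 replicate 2 and control A549 replicate 1 (adjusted p up to 0.0981). PRR22 was also not called by limma-voom (difference 0.11, adjusted p = 0.876) or by limma with a pseudocount of 0.1 (difference 0.17, adjusted p = 0.65). RSRP1, an arginine and serine rich protein named by the title of the series, had log2 fold changes of 1.31 in A549 and 0.80 in 293T, and its difference (adjusted p = 0.0309) was lost in 9 of the 12 fits that left out 1 library, all except the ones without exposed 293T replicate 3, control 293T replicate 1 or control A549 replicate 3.

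Gene lists gave the members' directions by pathway, beside 12.5% called and a median difference of -0.01 over all genes tested. Of 33 heat shock genes tested, 21 had a called difference and all 21 responded more in A549, 19 of them with a rise in both lines. The median difference was 0.59, from median log2 fold changes of 1.09 in A549 and 0.48 in 293T. HSPA4L, an HSP110 chaperone, had 5.72, 5.27 and 5.34 against 22.1, 23.4 and 16.5 FPKM in A549 and 10.1, 10.1 and 10.5 against 15.0, 15.1 and 11.6 FPKM in 293T. It rose without overlap in both lines, further in A549 (difference 1.33, SE 0.16, adjusted p = 0.000564). The HSP110 gene HSPA4 had log2 fold changes of 0.86 and 0.15, and the HSP40 gene DNAJA1 of 1.08 and 0.49. Members not called included HSPA1A, HSPA8, DNAJB1 and BAG3, while HSPA1B was called, all named after their values were seen. Limma-voom called 19 members, and with no filter 12 responded more.

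The unfolded protein response, which the endoplasmic reticulum sends when its folding load is too high, had no member with a called difference. None of 29 members tested was called by limma, 2 were at an unadjusted p under 0.05, and limma-voom called 0, while quantile normalization called 1 and leaving out exposed 293T replicate 3 called 1. Medians were 0.44 in A549 and 0.39 in 293T, and single differences ran from -0.44 to 0.39 with a median SE of 0.12.

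The ATF4 amino acid response leaned to 293T, with 7 of 29 members responding less in A549 and 2 more, and a median difference of -0.20. Besides ATF3, DDIT4 and SLC7A11, the lipoprotein receptor gene VLDLR had log2 fold changes of 0.29 in 293T and -0.14 in A549, a difference lost without control 293T replicate 1 (adjusted p = 0.0535) and with no filter (0.0585). The 2 with the higher response in A549 were NUPR1 and TRIB3, named after their values were seen. At most 1 of them was called when exposed 293T replicate 2, exposed A549 replicate 1 or 2, control 293T replicate 1 or 2 or any control A549 library was left out. At most 1 was also called by limma-voom, with no filter, with a mean of at least 1 FPKM or with a pseudocount of 0.1. The count of 7 rested on single libraries and was 3 with no filter. It was 14 without exposed 293T replicate 3, 3 without control 293T replicate 1, and 4 without exposed 293T replicate 1 or 2, control 293T replicate 2 or 3, or control A549 replicate 2 or 3.

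Immediate early genes were split. Of 40 tested, 19 were called, 7 with the higher and 12 with the lower response in A549, and the median difference of -0.03 changed sign with a mean FPKM of at least 1, with no filter and with a pseudocount of 0.1. KLF6, a Krueppel-like factor, rose from 7.76, 7.79 and 7.71 to 21.8, 19.8 and 16.3 FPKM in 293T and from 17.0, 17.6 and 18.2 to 22.6, 23.6 and 23.8 FPKM in A549, without overlap in either line (difference -0.82, SE 0.11, adjusted p = 0.000861). MYC, CCN1 and CCN2 stood on the A549 side of this list and ATF3, RHOB, JUN, JUND and KLF2 on the 293T side.

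Of 26 targets of YAP and TEAD, 10 responded more in A549 and 4 less, and the median difference was 0.13. AJUBA, a LIM protein of cell junctions, rose from 19.5, 18.6 and 19.2 to 36.5, 31.9 and 29.7 FPKM in A549 and from 3.02, 2.87 and 2.99 to 3.37, 3.57 and 3.38 FPKM in 293T (difference 0.57, SE 0.09, adjusted p = 0.00159). GADD45A, a growth arrest gene also on the p53 list, was on the other side with log2 fold changes of -0.35 in A549 and 0.24 in 293T. The others with the lower response were AMOTL1, IGFBP3 and AXL, named after their values were seen. The count of 4 fell to 2 by limma-voom, with TPM, median centring, no filter or a pseudocount of 0.1, and without any 1 of exposed 293T replicates 1 and 2, exposed A549 replicates 2 and 3, control 293T replicates 2 and 3, and control A549 replicates 2 and 3.

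TGF-beta and BMP targets held several genes of the opposite classes. Of 24 tested, 3 responded more in A549 and 7 less, and 4 belonged to the opposite classes, PMEPA1, ID1, SNAI2 and SMAD3, the last named after its values were seen. CDKN1A, the cell cycle inhibitor p21, was at 14.2, 13.8 and 14.03 FPKM in control and 25.2, 25.2 and 21.8 FPKM in exposed 293T, and at 74.0, 74.7 and 77.6 and 78.05, 82.7 and 80.2 FPKM in A549. The A549 level was higher throughout and only the 293T rise passed the test (difference -0.65, SE 0.07, adjusted p = 0.000321). BMP4, a ligand of the family, had log2 fold changes of 0.85 in A549 and 0.11 in 293T, and the others with the higher response were SNAI2 and the ligand TGFB2, named after its values were seen. The count of 7 was 4 with TPM, no filter or a pseudocount of 0.1, and without exposed A549 replicate 1, control 293T replicate 2 or 3, or control A549 replicate 3.

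Secreted cytokines and growth factors were called for 15 of 46 members tested, 10 with the higher and 5 with the lower response in A549. The median difference of 0.01 turned negative (-0.01 to -0.03) after rescaling to TPM, with limma-voom, with no filter, with a pseudocount of 0.1 and with mitochondrial genes left out of the total. EDN1, the vasoconstrictor endothelin, rose in A549 from 17.6, 19.2 and 17.9 to 41.3, 38.3 and 43.3 FPKM and stayed between 0.127 and 0.247 FPKM in 293T (difference 1.15, SE 0.08, adjusted p = 1.2e-05, and 0.0627 with limma-voom). NRG1, a ligand of ERBB receptors, rose 1.71-fold in A549 and was under 0.1 FPKM in 293T (0.117 with limma-voom). EDN1 and NRG1 passed the filter through A549 alone. At their 293T levels a response there could not be measured, so their differences mostly restate the A549 rise. CSF1, the macrophage growth factor, fell in 293T from 1.99, 1.97 and 1.73 to 1.09, 1.25 and 1.42 FPKM and had a log2 fold change of 0.17 in A549 (difference 0.53, SE 0.09, adjusted p = 0.00304). Limma-voom called 4 higher and 1 lower, and a pseudocount of 0.1 gave 6 higher and 2 lower. The 5 with the lower response, CXCL2, STC2, TNFSF10, VEGFA and WNT7B, were named after their values were seen. That count of 5 was 0 without control 293T replicate 1 or control A549 replicate 3, and 1 without exposed 293T replicate 2, control 293T replicate 2 or 3 or control A549 replicate 1. It was 2 without exposed 293T replicate 1 or exposed A549 replicate 2, and 3 without control A549 replicate 2.

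Cell cycle lists pointed in opposite directions. Of 44 genes of G1/S and DNA replication, 1 responded more in A549 and 9 less, with a median of -0.07. The 1 was CCND1, cyclin D1, named after its values were seen. E2F3, an activator of S phase genes, rose in 293T from 14.4, 14.7 and 15.0 to 22.9, 22.1 and 20.8 FPKM and held 5.32, 5.18 and 5.20 and 5.19, 5.21 and 5.92 FPKM in A549 (difference -0.50, SE 0.07, adjusted p = 0.00105). CCNE2, cyclin E2, had log2 fold changes of -0.58 in A549 and 0.22 in 293T, and ORC1, a subunit of the origin recognition complex, of -0.53 and -0.14. Of 35 genes of G2/M and mitosis, 11 responded more in A549 and 1 less, with a median of 0.16. UBE2C, a ubiquitin-conjugating enzyme of mitotic exit, had 0.45 and 0.03, CCNB1, cyclin B1, 0.29 and -0.11, securin PTTG1 0.19 and -0.09, and PLK1, the mitotic kinase, -0.15 and -0.50. The 1 exception, WEE1, a kinase that delays mitosis, was named after its values were seen. Its call was lost by limma-voom, with TPM, with no filter and with a pseudocount of 0.1, and without any library except exposed 293T replicate 3 and exposed A549 replicates 1 and 2.

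Of 30 interferon-stimulated genes 6 were called, all with a lower response in A549, with a median of -0.20. Limma-voom called 1 lower and 1 higher, a pseudocount of 0.1 left 1 lower, and TPM, quantile normalization and a mean of at least 1 FPKM left 3 lower each. IRF1, a factor of interferon signalling, went from 14.2, 14.9 and 14.5 to 10.8, 10.1 and 10.6 FPKM in A549 and from 1.87, 1.69 and 1.96 to 1.64, 1.53 and 1.75 FPKM in 293T. OASL fell from 1.21, 1.20 and 0.874 to 0.680, 0.566 and 0.542 FPKM in A549 and was under 0.1 FPKM in 293T, as was IFI44, whose difference of -0.33 was lost without exposed A549 replicate 1 or 2, control 293T replicate 2 or control A549 replicate 1 (adjusted p up to 0.0564) and reversed to 0.73 with limma-voom, uncalled. Without exposed A549 replicate 1 or 2 the count of 6 was 3. Of 27 NF-kB targets, 6 responded less in A549, a count of 3 by limma-voom and 2 with a pseudocount of 0.1. The 1 that responded more was the protease gene PLAU, named after its values were seen. That count was 0 by limma-voom, with no filter, or without exposed 293T replicate 1 or 2, exposed A549 replicate 1, control 293T replicate 3 or control A549 replicate 1, and 2 without exposed A549 replicate 2 or 3. TNFAIP2 fell in A549 from 113, 113 and 117 to 82.0, 88.0 and 86.4 FPKM and was at 0.432, 0.280 and 0.288 and 0.220, 0.286 and 0.308 FPKM in 293T. OASL, IFI44 and TNFAIP2 passed the filter through A549 alone, and at their 293T levels a fall there could not be measured. The superoxide dismutase gene SOD2 had log2 fold changes of -0.30 and 0.02, and TNIP2, an inhibitor of NF-kB, of -0.06 and 0.23. The differences for IRF1, OASL and TNFAIP2 were not called by limma-voom (adjusted p = 0.151, 0.719 and 0.831).

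Of 30 p53 targets, 2 responded more in A549 and 9 less, with a median of -0.13. Of these, ZMAT3, GADD45A and BBC3 fell in A549 and rose in 293T, BBC3 named after its values were seen. ZMAT3, an RNA-binding protein gene, went from 4.18, 3.64 and 3.66 to 2.31, 2.27 and 2.86 FPKM in A549 and from 2.83, 2.85 and 2.94 to 3.90, 3.71 and 3.34 FPKM in 293T (difference -0.74, SE 0.10, adjusted p = 0.000987). GADD45B, which immediate early signals also induce, rose 2.11-fold in A549 with a log2 fold change of 0.17 in 293T (difference 0.85, SE 0.11, adjusted p = 0.000928). PMAIP1, named after its values were seen, was the other with the higher response. That count of 2 was 1 without exposed 293T replicate 2, control 293T replicate 3 or control A549 replicate 3.

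Metabolic lists differed in a few members. Of 27 genes of cholesterol synthesis 5 responded more in A549, 3 with no filter, and 1 less. HMGCS1, a synthase of the mevalonate pathway, was in the opposite class with 29.8, 28.4 and 28.3 against 33.9, 36.6 and 32.7 FPKM in A549 and 21.5, 21.3 and 20.5 against 16.2, 17.0 and 19.2 FPKM in 293T (difference 0.51, SE 0.08, adjusted p = 0.00244). HSD17B7 had log2 fold changes of 0.67 and 0.14, and FDPS of 0.20 and -0.02. MSMO1, the 1 with the lower response, was named after its values were seen, and it was no longer called without exposed 293T replicate 3, exposed A549 replicate 1 or 3, control 293T replicate 1 or 2, or control A549 replicate 1. Of 38 genes of NRF2 and detoxification, 1 responded more in A549 and 11 less, with a median of -0.10. GCLC, the catalytic subunit of glutathione synthesis, fell in A549 from 58.6, 55.3 and 56.2 to 37.7, 36.1 and 43.1 FPKM and held 14.9, 14.5 and 14.8 and 14.4, 14.2 and 15.5 FPKM in 293T (difference -0.53, SE 0.08, adjusted p = 0.00171). SQSTM1, the autophagy receptor p62, rose 1.35-fold in 293T and had a log2 fold change of 0.04 in A549, and ALDH1A1, an aldehyde dehydrogenase marking A549, had 0.41 and 0.12. EPHX1, the epoxide hydrolase, was the 1 with the higher response, a count that was 2 without exposed 293T replicate 3 and 3 without exposed A549 replicate 3. The count of 11 was 6 by limma-voom, 7 with median centring or no filter, and 7 without exposed 293T replicate 2, exposed A549 replicate 1 or 2, or control A549 replicate 3.

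Of 36 genes of glycolysis and hypoxia, 3 responded more in A549 and 5 less, and the median of -0.01 was 0.01 or 0.02 with limma-voom and median centring. Besides SLC2A3, the collagen prolyl hydroxylase gene P4HA2 rose 1.72-fold in A549 and 1.19-fold in 293T, and ADM, named after its values were seen, was the third. PFKFB3, a regulator of glycolytic flux, fell 1.22-fold in A549 with a log2 fold change of -0.07 in 293T, and KDM3A, a histone demethylase, had -0.26 and 0.06. The other three with the lower response, SLC2A1, GPI and VEGFA, were named after their values were seen. The count of 5 was 3 by limma-voom and with median centring, 2 without exposed A549 replicate 2 or control 293T replicate 3, and 3 without exposed 293T replicate 2, exposed A549 replicate 1, control 293T replicate 2 or control A549 replicate 3. Of 14 genes of metal handling, TFRC and the iron exporter SLC40A1 were called, SLC40A1 with log2 fold changes of -0.23 in A549 and -0.68 in 293T and a call lost without exposed 293T replicate 1, exposed A549 replicate 2 or 3, control 293T replicate 3 or control A549 replicate 2 or 3 (adjusted p up to 0.0723). No metallothionein gene was called.

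None of 75 cytosolic ribosomal protein genes, 47 nuclear oxidative phosphorylation genes and 13 mitochondrially encoded genes was called by limma, with 3, 3 and 1 at an unadjusted p under 0.05 and 0 each by limma-voom. Quantile normalization called 8 ribosomal protein genes and 1 oxidative phosphorylation gene, all with a lower response in A549, and 1 mitochondrially encoded gene with a higher one, and ribosomal protein genes with a lower response numbered 1 with TPM and 2 with mitochondrial genes left out of the total. Leaving out 1 library called 1 ribosomal protein gene (without exposed 293T replicate 1 or control A549 replicate 1), 1 oxidative phosphorylation gene (without exposed 293T replicate 1 or control A549 replicate 2) and 1 mitochondrially encoded gene (without control A549 replicate 3). Differences among the ribosomal protein genes ran from -0.12 to 0.09. Of 37 proteasome and ubiquitin genes 2 were called, both with a higher response in A549, UBQLN1 among them. That count was 1 with no filter, with quantile normalization, or without exposed 293T replicate 1 or 2 or any 1 control library. Of 40 genes of ribosome biogenesis, BRIX1, DDX10, NAT10 and POLR1B were called, all with the higher response in A549, a count of 10 without exposed 293T replicate 3 and 2 without exposed 293T replicate 2, exposed A549 replicate 1 or control 293T replicate 1 or 2. The call for POLR1B held in 1 fit that left out a library, the one without exposed 293T replicate 3 (adjusted p up to 0.113 in the others).

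Small nucleolar RNA host genes, whose introns hold guide RNAs of ribosomal RNA modification, had 5 of 25 members called, all lower in A549, with a median of -0.18, and 2 by limma-voom or with no filter. GAS5 fell 1.27-fold in A549 and had a log2 fold change of -0.08 in 293T, SNHG32 had -0.34 and -0.11, SNHG6 -0.08 and 0.16, and TAF1D, named after its values were seen, -0.36 and -0.09. The differences for SNHG32 and SNHG6 were not called by limma-voom (adjusted p = 0.0728 and 0.058), that for SNHG32 also with median centring (0.0528), and that for GAS5 with no filter (0.0502). Their count was 1 without exposed 293T replicate 2 or control A549 replicate 3 and 2 without control 293T replicate 1 or 2. Of 31 genes of SR splicing factors and CLK kinases, CLK1 and RSRP1 were called. CLK1, a kinase of SR proteins, was at 18.4, 17.0 and 17.5 FPKM in control and 57.3, 75.9 and 60.8 FPKM in exposed A549, and at 20.2, 20.3 and 20.5 and 46.4, 41.8 and 44.9 FPKM in 293T (difference 0.72, SE 0.11, adjusted p = 0.00215).

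Genes of the cytoskeleton and of line identity also differed. Of 27 actin and SRF targets 6 responded more in A549 and 1 less. The cytoplasmic actins ACTG1 and ACTB had log2 fold changes of -0.34 and -0.21 in 293T and of -0.10 and -0.02 in A549. VIM, the intermediate filament vimentin, was the exception, in the opposite class with -0.16 in A549 and 0.25 in 293T (difference -0.41, SE 0.07, adjusted p = 0.00226). Of 17 A549 markers 1 responded more there, KRT18 (0.22 against 0.00), and 5 less, among them the mucin MUC5B (-0.38 against 0.00), the transporter ABCC3 (-0.23 against 0.02), ALDH1A1 and, named after its values were seen, KRT19, a count of 1 by limma-voom, 2 with a pseudocount of 0.1, 8 with quantile normalization and 3 with no filter and without exposed 293T replicate 2, exposed A549 replicate 2, control 293T replicate 3 or control A549 replicate 1 or 2. The differences for MUC5B and ABCC3 were not called by limma-voom (adjusted p = 0.631 and 0.553). All 17 markers were higher in control A549 than in control 293T. For a marker near 0 in 293T a response there could not be measured well, and its difference mostly restates the A549 change. Of 14 tested 293T markers 4 had a lower response in A549, GATA2, HOXC6, IGF2BP1 and NEFL, all through falls in A549, and the call for NEFL was lost without any 1 library except exposed A549 replicate 3 (adjusted p up to 0.11). Of 4 tested markers of other cell types, the collagen gene COL1A1 was called (0.48 against -0.14), though not with no filter, and was named after its values were seen. Whether any of these markers has a part in the other differences was not tested.

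**Figure D5:**
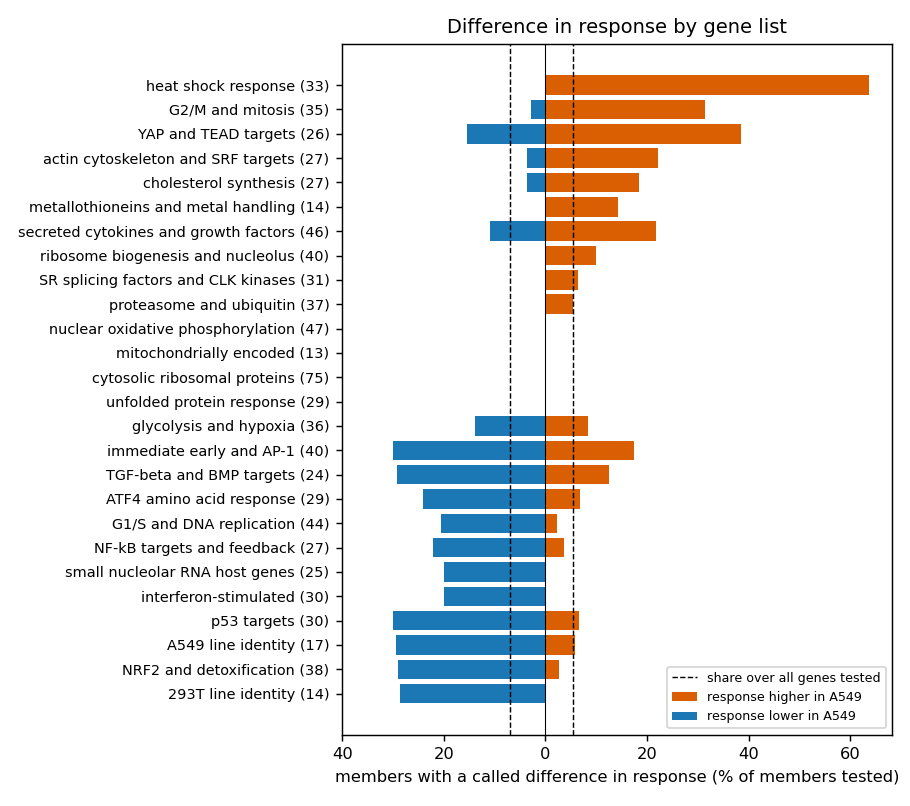
Share of the tested members of each gene list (vertical, number tested in brackets) with a called difference in response (horizontal, percent), to the right in orange for a higher response in A549 and to the left in blue for a lower one, with dashed lines at the shares over all genes tested. The heat shock list reaches farthest to the right with 21 of 33 members, while 4 lists have no bar.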

How the data were processed

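The authors deposited 1 table of FPKM for 26348 genes in 12 libraries. The tools named, per the submitters' processing notes, are fastp, HISAT2 and HTSeq, with GRCh38 as build. Versions, settings and strand use are not given in the sources used here. FPKM of every gene came out as whole fragments within 0.01 once the value of 1 fragment was recovered, and FPKM divides by gene length and total, so a large rise of a few genes lowers the rest.

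Values were taken as log2(FPKM + 1), with a pseudocount of 1. Genes with at least 0.5 FPKM in at least 3 libraries were fitted with limma 3.58.1 (R 4.3.3, intensity trend, 8 residual degrees of freedom), 1 mean per group, with Benjamini-Hochberg adjustment over the 13811 genes. The difference in response was (exposed minus control in A549) minus (exposed minus control in 293T). A gene was expressed in a line at 0.5 FPKM or more in at least 3 of its 6 libraries. The scripts were checked on simulated data. RefSeq matched 25419 of the gene identifiers. Named genes whose overlaps are not given above include TOB1 (TOB1-AS1), CPEB2 (C1QTNF7-AS1), ARRDC3 (ARRDC3-AS1), SNHG12 (TRNAU1AP), HOXB4 (HOXB3) and RSRP1 (RHD). Their values may include reads of the neighbour.

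Alternatives were limma-voom on the recovered counts, TPM, median centring, quantile normalization, totals without mitochondrial genes, other filters and pseudocounts, no intensity trend, a replicate block and leaving out each library. Genes picked by class had a symbol, a mean of at least 1 FPKM in 1 group or more, and, where called, groups that did not overlap. List members and RSRP1 were named without these conditions. Opposite classes gave the 10 genes per direction whose weaker response was largest. The 1-line classes gave, by line and direction, the 6 largest differences among genes expressed in the other line and the 3 largest among those not expressed there. Same-direction classes gave 3 each, each list 2 to 4 with the smallest p, and RSRP1 was always named. The members and lists were chosen with earlier results of these data known. A few genes that the rule or the lists take in are not reported here.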

Additional observations from a re-analysis of the deposited data

Results flagged for a closer look

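All results here are differences of response between the lines for which the difference itself was tested, with limma's interaction term over the 12 libraries. The test found a higher response in A549 for 761 genes and a lower one for 971. Opposite directions were found for 65 genes that rose in A549 and fell in 293T and for 88 that fell in A549 and rose in 293T. A call in A549 only came with 306 rises and 521 falls, and a call in 293T only with 253 rises and 272 falls. Of these 1352 genes, 416 were not expressed in the line without a call, and a response there could not be measured well. With limma-voom 5 of 241 such genes remained called in A549 only and 5 of 175 in 293T only.

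Among the genes that rose in A549 and fell in 293T, the differences in log2 fold change were 1.34 for MYC, 1.41 for MIR503HG, 0.97 for TFAP2C, 0.81 for EPHA2 and 0.65 for RNF182. They were 0.85 for TSPYL4, 0.63 for PRKD2, 1.12 for SLC2A3, 0.56 for FGF2 and 0.82 for SNAI2. Among those that fell in A549 and rose in 293T, they were -1.04 for SLC7A11, -1.02 for SLC6A9, -0.80 for CPEB2, -0.78 for TOB1 and -0.77 for SERTAD3. They were -0.76 for FZD7, -0.95 for PMEPA1, -0.80 for ID1, -0.66 for FBXO5 and -0.68 for HOXA13.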

How the results depend on the processing

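Of 127 named genes, 126 had a called difference, 83 under every alternative run and 110 without each library. Limma-voom called 580 lower responses, 211 falls in A549 only and 127 falls in 293T only, and shared 1047 of the 1732 calls. With no filter 55 genes fell in A549 and rose in 293T, and a pseudocount of 0.1 gave 164 falls in 293T only. A difference of at least 1 left 26 and 7 genes. With limma-voom 1662 of the 1732 genes kept their sign. Of the named genes, IFI44 reversed, to 0.73 with limma-voom. The cause of these changes was not tested.

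Leaving out 1 library gave 544 to 1005 higher and 637 to 1030 lower responses, and 41 to 74 and 56 to 99 opposite genes. It gave 246 to 315 rises and 349 to 565 falls in A549 only, and 156 to 320 rises and 167 to 426 falls in 293T only.

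Within each line, deviations of same-numbered exposed and control libraries had correlations between -0.141 and 0. Same-numbered exposed libraries were not compared across the lines, and exposed replicate 3 lay nearest to the controls in both. Whether the numbers mark pairs across lines was not tested. A replicate block, with 4 residual degrees of freedom, called 472 higher and 575 lower responses. It called 43 genes that rose in A549 and fell in 293T, 331 falls in A549 only, and 138 rises and 152 falls in 293T only. Of the genes of G2/M and mitosis it called 5 higher responses, without PTTG1 (adjusted p = 0.0538).

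The number of 3 libraries per group and the FPKM unit limit what can be told of genes near 0.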
